A study of Homo sapiens with 12 samples.

Results

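The genes examined are 10 transcriptional targets of Wnt signaling in intestinal and colorectal cells: *AXIN2*, *LGR5*, *ASCL2*, *TCF7*, *LEF1*, *NKD1*, *RNF43*, *ZNRF3*, *SP5* and *NOTUM*. They were chosen by name, as 10 of the 20033 protein-coding genes in the annotation (GENCODE, hg38), and each was followed through the H3K27ac peaks within 1 kb and within 50 kb of its annotated transcript starts. H3K27ac is an acetylated histone that marks active promoters and enhancers. It was profiled by CUT&RUN, in which antibody-tethered nuclease releases the acetylated chromatin for sequencing, in HCT116, an established colorectal cancer cell line. The 3 conditions were untreated cells, cells given 1 μM cobimetinib (an inhibitor of the MAPK kinase MEK) for 24 hours and cells given 100 ng/mL of the cytokine TNFα for 24 hours, all on the same parental line, with 2 H3K27ac libraries each. The labels also list 6 IgG libraries, which were not used here, and the values below therefore stand without a control for nonspecific cleavage.

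Wnt ligands act through Frizzled and LRP receptors to stop the destruction of β-catenin, which then enters the nucleus and binds the TCF/LEF proteins at the DNA of target genes. Many of these targets feed back on the pathway: AXIN2 is a scaffold of the complex that destroys β-catenin, NKD1 binds Dishevelled, RNF43 and ZNRF3 are ubiquitin ligases that remove Frizzled from the cell surface, and NOTUM is a secreted enzyme that inactivates Wnt ligands. TCF7 and LEF1 are TCF/LEF factors themselves, SP5 is a transcriptional repressor, LGR5 is the R-spondin receptor that marks intestinal stem cells, and ASCL2 is a transcription factor of those cells. In colorectal cancer this program is commonly switched on by mutations downstream of the ligand.

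Each library is a list of scored peaks, 69813 to 124771 long, and sequencing depth is unknown from such lists. A peak is described by its rank, counted from the best score downward in its own list, so that rank 1 is the top. Differences between conditions are given on the −log2 rank scale, on which a positive value means nearer to the top of the list in the condition named first and 1 unit is a factor of 2 in rank. Untreated replicate 2 stood apart, with a median width of 380 bp among its 20000 highest peaks against 922 to 1266 bp in the other 5 libraries. Of 10 intestinal epithelial markers, 9 had a promoter peak in all 6 libraries, against 0 of 5 markers in each of the blood, neuronal, muscle and stroma, and liver lists. Among all protein-coding genes the share was 51.9%. The study's methods call the replicates treatment replicates, and no label says whether each was a culture of its own, so p-values measure the spread between these libraries, which may be technical.

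RefSeq promoter sequences (GRCh38.p14, from 250 bases before to 50 after the start) were at hand for 4 of the 10 genes, *TCF7*, *LEF1*, *RNF43* and *SP5*. They were searched on both strands for the TCF/LEF words CTTTGAT and CTTTGAA (reverse complements ATCAAAG and TTCAAAG) and for the AP1 word TGACTCA (reverse complement TGAGTCA), none of which overlapped another match in the sequences shown here. The *SP5* promoter is shown because it held 3 TCF/LEF words, marked in capitals, at chr2:170715087-170715386 on the plus strand. At least 1 such word was present in 6.86% of 35116 RefSeq promoters and 3 or more in 0.0256%.
SP5 promoter: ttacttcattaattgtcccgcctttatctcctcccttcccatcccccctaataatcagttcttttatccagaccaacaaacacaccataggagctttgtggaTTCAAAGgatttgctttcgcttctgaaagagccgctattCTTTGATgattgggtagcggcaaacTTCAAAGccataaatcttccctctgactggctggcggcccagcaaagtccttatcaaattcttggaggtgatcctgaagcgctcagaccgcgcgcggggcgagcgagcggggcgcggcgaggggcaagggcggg
Peaks covered some of this stretch in 4 of the 6 libraries. The promoter of a second *RNF43* start, at chr17:58402672-58402971 on the minus strand, is shown because peaks covered at least part of it in all 6 libraries (129 of its 300 bases in untreated replicate 2) and it held 1 AP1 word, marked in capitals. That word was found in 4.95% of RefSeq promoters.
RNF43 promoter: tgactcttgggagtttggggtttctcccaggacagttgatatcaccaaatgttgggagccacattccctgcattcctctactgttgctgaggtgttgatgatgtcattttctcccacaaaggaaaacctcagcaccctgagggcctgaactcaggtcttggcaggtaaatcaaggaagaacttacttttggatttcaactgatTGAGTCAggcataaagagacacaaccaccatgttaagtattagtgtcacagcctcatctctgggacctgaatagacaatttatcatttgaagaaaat
The *LEF1* and *TCF7* promoters and the other *RNF43* promoter held neither word. A match of letters describes the sequence and is not evidence that a factor binds there.

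At the promoters, AXIN2 carried the best-ranked mark of the 10 genes in 5 of the 6 libraries, and 2 genes, *ASCL2* and *NOTUM*, had no peak within 1 kb of a start in any. Of the 10 genes, 4 (*AXIN2*, *TCF7*, *RNF43* and *ZNRF3*) had a promoter peak in all 6 libraries, against 51.9% of all protein-coding genes. The 2 genes with none stand against 25.5% of all genes. By library, 6 and 5 of the 10 genes had a promoter peak in untreated cells, 8 and 5 under cobimetinib and 6 and 5 under TNFα, with 58.8 to 65.4% of all genes in the same libraries. The 8 genes of cobimetinib replicate 1 included *LGR5* and *LEF1*, each through 1 narrow peak near rank 84547, of 179 and 162 bp. Presence in 2 libraries against 2 allows no test of a single gene, since the smallest exact two-sided p is 0.333.

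**Figure D1:**
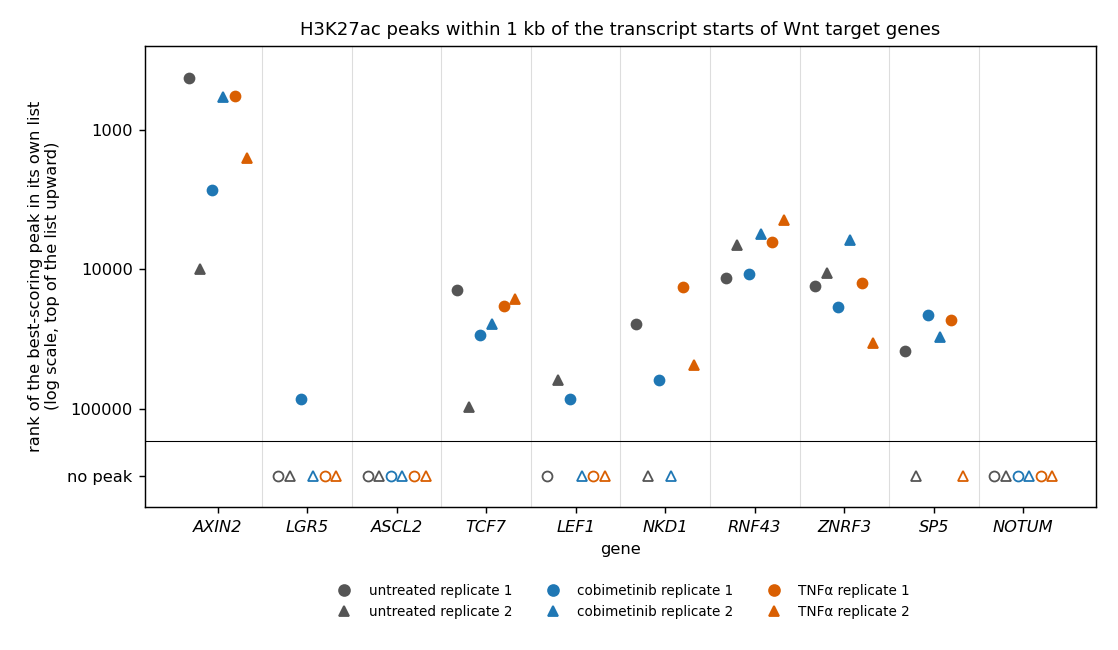
Rank of the best-scoring H3K27ac peak within 1 kb of a transcript start (y axis, log scale, top of the list upward) for the 10 genes (x axis) in each library; colour gives the condition, circles replicate 1, triangles replicate 2, and open symbols below the line a library with no peak. *AXIN2* ran from rank 429 to 9919, while *ASCL2* and *NOTUM* had only open symbols.

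Among the genes that feed back on the pathway, the *AXIN2* promoter peak (chr17:65560221-65562135 at its widest, over the canonical start) ranked 429 and 9919 in untreated cells, 2709 and 582 under cobimetinib and 571 and 1606 under TNFα. Its width was 1276 and 524 bp, 889 and 1915 bp, and 994 and 758 bp in the same order. The 2 untreated libraries held the highest and the lowest of the 6 ranks, so both treated pairs lay inside the untreated range. Cobimetinib differed from untreated by 0.72 ± 1.26 (SE, n = 2 and 2, limma adjusted p = 0.905) and TNFα from untreated by 1.11 ± 1.26 (limma adjusted p = 0.969). Without untreated replicate 1 the differences were 2.98 (limma adjusted p = 0.0428) and 3.37 (0.0311), in fits that called 24.4% and 17.5% of all 13272 genes and in which the lone untreated library is assumed to vary like the other groups. Without untreated replicate 2 they were −1.55 and −1.16, and without cobimetinib replicate 2 cobimetinib differed from untreated by −0.39. The 2 protein-coding genes with the most similar ranks over the 6 libraries were *CYBA*, a subunit of the phagocyte NADPH oxidase, and *ARFGEF2*, an exchange factor for ARF proteins, with root-mean-square differences of 0.576 and 0.582 on the log2 scale.

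The *RNF43* promoters ranked 11546 and 6730 in untreated cells, 10803 and 5546 under cobimetinib and 6407 and 4455 under TNFα. The TNFα libraries both ranked nearer to the top than both untreated ones, by 0.72 ± 0.80 (limma adjusted p = 0.969). The best peak of *RNF43* was not at the same start throughout: it lay at the second start, 13.4 to 13.7 kb into the gene, in 4 libraries and at the canonical start in untreated replicate 2 and TNFα replicate 2. *ZNRF3* ranked 13120 and 10540, 18655 and 6171, and 12518 and 33771 in the 3 conditions, with overlapping groups in each comparison. Here too the start changed, from the canonical one in untreated and TNFα-treated cells to one 34.0 to 34.2 kb into the gene in both cobimetinib libraries. *NKD1* had promoter peaks at rank 24358 in untreated replicate 1, 61357 in cobimetinib replicate 1, and 13353 and 48562 under TNFα, and none in the other 2 libraries.

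Among the transcription factor genes, *TCF7* ranked 14067 and 96281 in untreated cells, 29452 and 24639 under cobimetinib and 18257 and 16379 under TNFα. Its best peak lay at or within 40 bp of the canonical start in untreated replicate 1, cobimetinib replicate 1 and TNFα replicate 2, 0.701 kb from it in untreated replicate 2, 9.87 kb in TNFα replicate 1 and 25.7 kb in cobimetinib replicate 2. TNFα differed from untreated by 1.09 ± 0.98 (limma adjusted p = 0.969), by 2.48 (0.0191) without untreated replicate 1, in the fit that called 17.5% of all genes, and by −1.11 with a window of 2 kb around the starts. *SP5* had a promoter peak at rank 38595 in untreated replicate 1 and none in untreated replicate 2, at 21039 and 30658 under cobimetinib, and at 23089 in TNFα replicate 1 alone. Both cobimetinib libraries thus ranked above both untreated ones, by 1.45 ± 0.92 (limma adjusted p = 0.725), where a library without a peak was given the rank after the end of its list. *LEF1* had 1 peak of 172 bp at rank 62095 in untreated replicate 2 and the narrow one in cobimetinib replicate 1, at different starts.

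None of the 7 genes that could be fitted (those with a peak in at least 2 libraries) passed an adjusted p of 0.05 in any comparison, and none had an unadjusted p under 0.05. The same limma fit called 0.0% of 13544 genes in each of the 3 comparisons, with 971, 440 and 729 genes at an unadjusted p under 0.05 for cobimetinib against untreated, TNFα against untreated and TNFα against cobimetinib. The median difference of the 7 genes was 0.19, 0.72 and 0.39, beside 0.36, 0.13 and −0.24 over all genes. Groups that did not overlap were found for 1, 2 and 3 of the 7 genes, against 33.9%, 27.6% and 44.0% of all genes; for *LEF1* this came from libraries without a peak. Relative to the median of all genes, *AXIN2* differed by 0.36, 0.98 and 0.63. Peak width gave the same picture for the 4 genes with a peak throughout, with 0 calls in each comparison, as among all 10392 genes with a peak in all 6 libraries; there 71, 67 and 62 genes had an unadjusted p under 0.05.

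**Figure D2:**
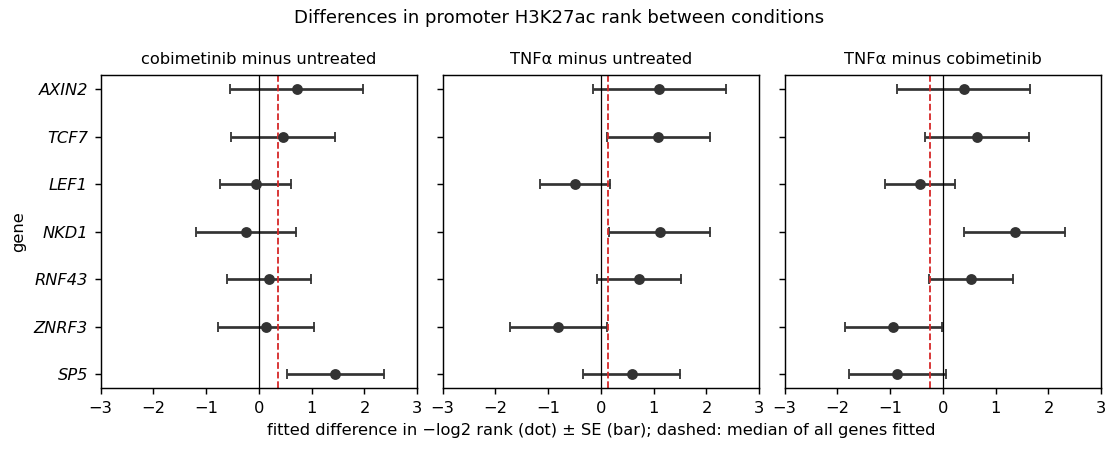
Fitted difference in −log2 rank of the promoter peak (x axis; dots, with bars of 1 SE) for the 7 genes fitted (y axis) in the 3 comparisons of conditions, 2 libraries each; the solid line marks 0 and the dashed line the median of all 13544 genes. The bars of most genes reach the dashed line, and the largest differences are 1.45 for *SP5* under cobimetinib and 1.36 for *NKD1* in TNFα against cobimetinib.

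Within 50 kb of a start all 10 genes had at least 1 peak in 5 libraries and 9 in untreated replicate 1, with 71 to 109 peaks per library over the 10 genes. Of these peaks, 12 to 21 lay within 1 kb of one of the 10 genes' own starts. A further 12 to 15 lay within 1 kb of the start of another protein-coding gene only. No gene passed the test on the best-ranked peak within 50 kb, against 0.0%, 0.0212% and 0.0582% of 18896 genes for cobimetinib against untreated, TNFα against untreated and TNFα against cobimetinib; 1903, 1230 and 2018 genes and 0 of the 10 had an unadjusted p under 0.05. For some genes the best peak in this window belonged to a neighbor. The best-ranked region near *TCF7* lay at the start of *SKP1*, and the 7 regions near *NOTUM* lay at the starts of *SIRT7*, *MAFG*, *PYCR1* and *ASPSCR1*.

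To follow single elements, the 20000 highest peaks of each library were merged within 100 bp into 38598 regions, of which 44 lay within 50 kb of a start of the 10 genes. *RNF43* had 11, *NOTUM* 7, *ZNRF3* 6, *AXIN2* and *TCF7* 4 each, *ASCL2*, *NKD1* and *SP5* 3 each, *LGR5* 2 and *LEF1* 1. A library is said to hold a region when one of its 20000 highest peaks overlaps it. Of the 44, 12 were held by all 6 libraries, beside 7931 of all 38598 regions. Of these 12, 5 lay near *NOTUM*, all at the starts of other genes. The 1 near *TCF7* lay at the *SKP1* start, and 1 of the 2 near *RNF43* at the *SUPT4H1* start. Another 17 of the 44 were held by 1 library, 7 of these by untreated replicate 2 alone. No share of all regions is given for these. Only 8 of the 44 lay within 1 kb of a start of the 10 genes. Of the rest, 10 lay at the start of another protein-coding gene and 26 away from all starts of protein-coding genes. Starts of other gene types were not considered. TCF/LEF words occurred in the 300 central bases of 10 of the 44 regions and AP1 words in 3, beside 9.44% and 16.0% of all regions.

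**Figure D3:**
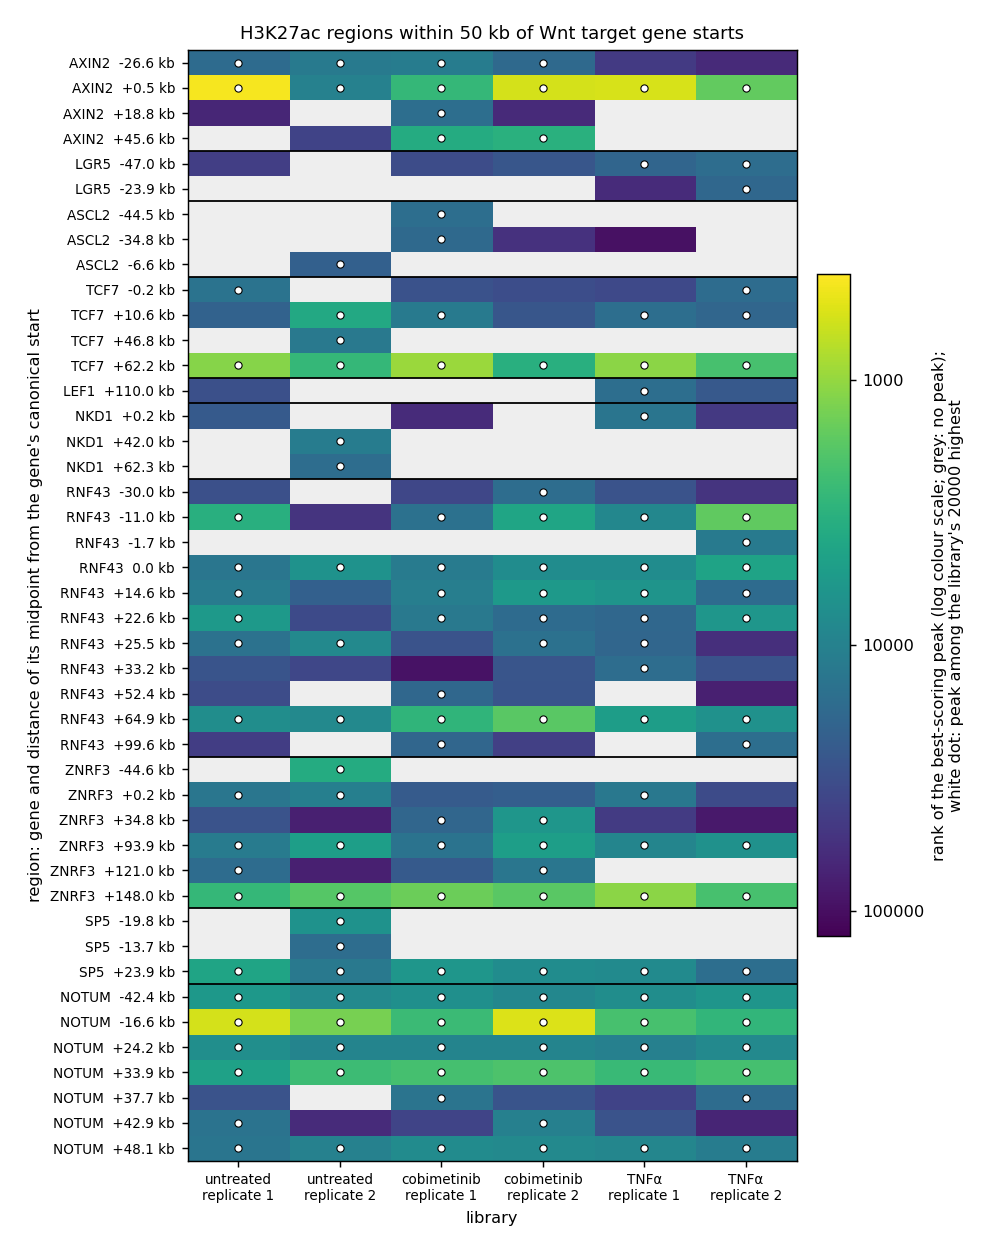
Rank of the best-scoring peak (colour, log scale, yellow toward the top of the list; grey for no peak) in the 44 regions (y axis, by gene and distance of the midpoint from the canonical start along transcription) for each library (x axis); white dots mark peaks among the library's 20000 highest. The *AXIN2* region at +45.6 kb is green only under cobimetinib, where it ranked 3687 and 3264.

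Of the 35 regions that could be fitted, 1 had an adjusted p under 0.05. It was a region through its cobimetinib peaks alone, with the bounds of the peak of cobimetinib replicate 2, so it was chosen where cobimetinib was high and its p-values are no independent support for a difference. It lay downstream of *AXIN2* at chr17:65515275-65516784, a stretch of 1510 bp outside annotated protein-coding genes. It is 19.9 kb from the nearest annotated *AXIN2* start, and its midpoint is 45.6 kb from the canonical one. Its peak ranked 3687 and 3264 under cobimetinib, with widths of 1091 and 1510 bp. In untreated cells it had no peak in replicate 1 and a peak of 169 bp at rank 39475 in replicate 2, and under TNFα it had no peak in either library. TNFα differed from cobimetinib by −4.90 ± 1.02 (SE, n = 2 and 2, limma adjusted p = 0.0108), a value that rests on the rank after the end of the list given to both TNFα libraries. Cobimetinib differed from untreated by 4.08 ± 1.02 (limma adjusted p = 0.0902), and TNFα from untreated by −0.82 ± 1.02 (0.842). Over all 31418 regions fitted, 0.204% passed for cobimetinib against untreated, 0.0987% for TNFα against untreated and 1.17% for TNFα against cobimetinib, beside 0, 0 and 1 of the 35.

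The call in TNFα against cobimetinib was lost when any 1 of the 4 treated libraries was left out (limma adjusted p = 0.142 to 0.21, differences −5.06 to −4.74) and when ranks were divided by the length of the list (limma adjusted p = 0.0657) or only the 40000 highest peaks were used (0.0659). The opposite happened without an untreated library: leaving out replicate 1 or 2 brought the adjusted p to 2.22e-05 and 5.12e-05, and then cobimetinib against untreated passed as well (limma adjusted p = 0.00223 and 0.0132). These fits called more regions in general, 9.71% and 9.42% of all regions for TNFα against cobimetinib and 28.1% and 0.436% for cobimetinib against untreated, and again the lone untreated library is assumed to vary like the other groups. The middle 300 bases of the 1091 bp that both cobimetinib peaks share, chr17:65515843-65516142 on the plus strand, are shown because this was the only region of the 44 past the threshold. The shared stretch held 3 TCF/LEF words and 0 AP1 words, 1 of them in the bases shown, in capitals. For all regions, words were counted only in the 300 central bases, so no share is at hand for longer stretches.
AXIN2 downstream region: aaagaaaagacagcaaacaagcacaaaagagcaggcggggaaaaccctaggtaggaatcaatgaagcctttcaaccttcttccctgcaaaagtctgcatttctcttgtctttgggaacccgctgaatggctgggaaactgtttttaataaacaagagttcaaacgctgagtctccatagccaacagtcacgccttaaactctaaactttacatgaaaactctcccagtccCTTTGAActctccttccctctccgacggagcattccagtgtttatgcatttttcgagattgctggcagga

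**Figure D4:**
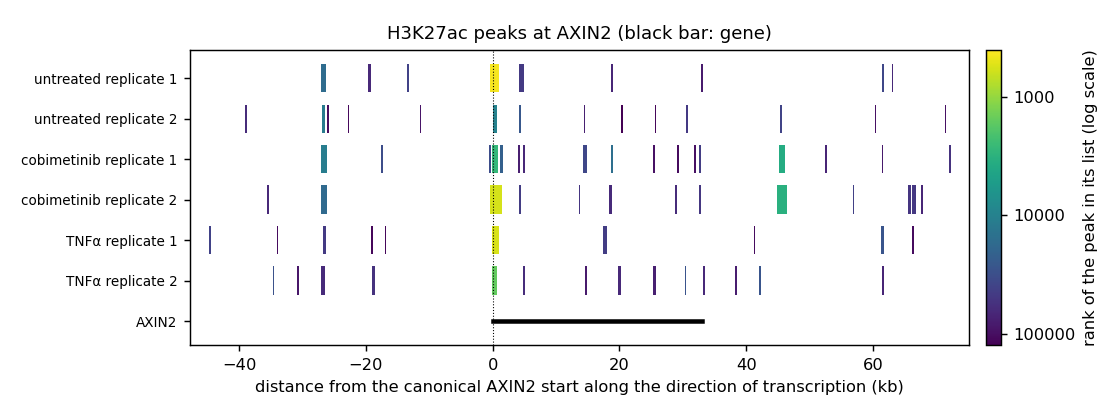
All H3K27ac peaks within 50 kb of an *AXIN2* start (boxes; narrow peaks are drawn at least 0.25 kb wide) by distance from the canonical start (x axis, kb) in the 6 libraries (rows), coloured by rank in their own list on a log scale; the black bar is the gene. The downstream peak near 45.6 kb is broad in both cobimetinib libraries, and the upstream peak near −26.6 kb is darkest, and so lowest in rank, under TNFα.

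Upstream of *AXIN2*, a region 26.1 kb from the nearest start at chr17:65587768-65588666, in an intron of an overlapping gene (ENSG00000266076), was held by both untreated and both cobimetinib libraries. It ranked 16923 and 11736 in untreated cells and 11142 and 17372 under cobimetinib, and 46873 and 62410 under TNFα. The TNFα libraries thus both ranked below the 4 others, by −1.94 against untreated (limma adjusted p = 0.625) and −1.96 against cobimetinib (0.391). This stretch was a region through its untreated and cobimetinib peaks alone, so these differences are no independent support for a lower rank under TNFα.

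*ZNRF3* showed a pair of regions at 2 of its starts that divided the conditions differently. The region at the canonical start, chr22:28883179-28884411, ranked 13120 and 10540 in untreated cells, 23989 and 22332 under cobimetinib and 12518 and 33771 under TNFα. The region 219 bp from the intronic start, chr22:28917608-28919134, ranked 28915 and 75835 in untreated cells, 18655 and 6171 under cobimetinib and 45994 and 83913 under TNFα. Cobimetinib thus ranked below untreated at the canonical start, by −0.98 (limma adjusted p = 0.69), and above it at the intronic start, by 2.13 (0.449). Neither difference passed. The canonical region was held by both untreated libraries and TNFα replicate 1 alone, and the intronic one by both cobimetinib libraries alone. Each was thus chosen where it was high, so the opposite directions are no independent support for a difference. The intronic region is shown through the middle 300 bases of the stretch that both cobimetinib peaks share, chr22:28918206-28918505 on the plus strand, because it was held by both cobimetinib libraries and no other. The shared stretch of 1203 bp held 3 TCF/LEF words and 1 AP1 word, of which 1 TCF/LEF word falls in these bases. The 470 bp shared by the 2 untreated peaks of the *AXIN2* upstream region held 0 words of either kind. So did the 513 bp shared by the 2 TNFα peaks of a region near *LGR5*, described below. The whole *AXIN2* upstream region of 899 bp held 1 TCF/LEF word. Stretches of such unlike length are not compared by their counts of words.
ZNRF3 intronic region: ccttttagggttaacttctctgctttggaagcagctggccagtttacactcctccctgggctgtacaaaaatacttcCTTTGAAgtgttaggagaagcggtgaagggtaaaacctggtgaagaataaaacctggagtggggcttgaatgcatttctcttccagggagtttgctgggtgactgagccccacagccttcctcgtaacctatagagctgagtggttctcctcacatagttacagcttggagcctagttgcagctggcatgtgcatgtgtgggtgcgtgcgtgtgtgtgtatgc

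Deeper in *ZNRF3*, 2 intronic regions were held by all 6 libraries. The one at chr22:29030651-29032921, 43.6 kb from the nearest start, ranked 2712 and 1821, 1466 and 1739, and 1086 and 2121 in the 3 conditions, nearer to the top than any promoter peak of the gene. The other, at chr22:28976435-28978466, ranked between 4987 and 13869. *SP5* likewise had its steadiest mark away from the promoter, 22.6 kb downstream at chr2:170738607-170739875, with ranks of 4385 and 12386, 6166 and 7680, and 7913 and 15726. This region ranked above the *SP5* promoter peak in the 4 libraries that had one.

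*RNF43* was marked at many places within the gene and beyond. The region over its 3′ end and the start of the neighboring *SUPT4H1*, chr17:58351464-58353715, ranked 7443 and 8297 in untreated cells, 2944 and 1739 under cobimetinib and 5095 and 6900 under TNFα. The order of the 3 conditions did not overlap, and the differences were 1.80 for cobimetinib (limma adjusted p = 0.419) and 0.41 for TNFα (0.912). The second start, chr17:58401709-58404129, ranked 11546 and 21375, 10803 and 5546, and 6407 and 16717, and the canonical start, chr17:58416488-58418596, ranked 13120 and 6730, 11530 and 7580, and 7635 and 4455. A region 10.1 kb beyond the gene's outermost start, chr17:58427703-58429276 in an intron of *HSF5*, ranked 3339 and 53122, 14679 and 4282, and 8792 and 1622, with the 2 libraries of each condition far apart.

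**Figure D5:**
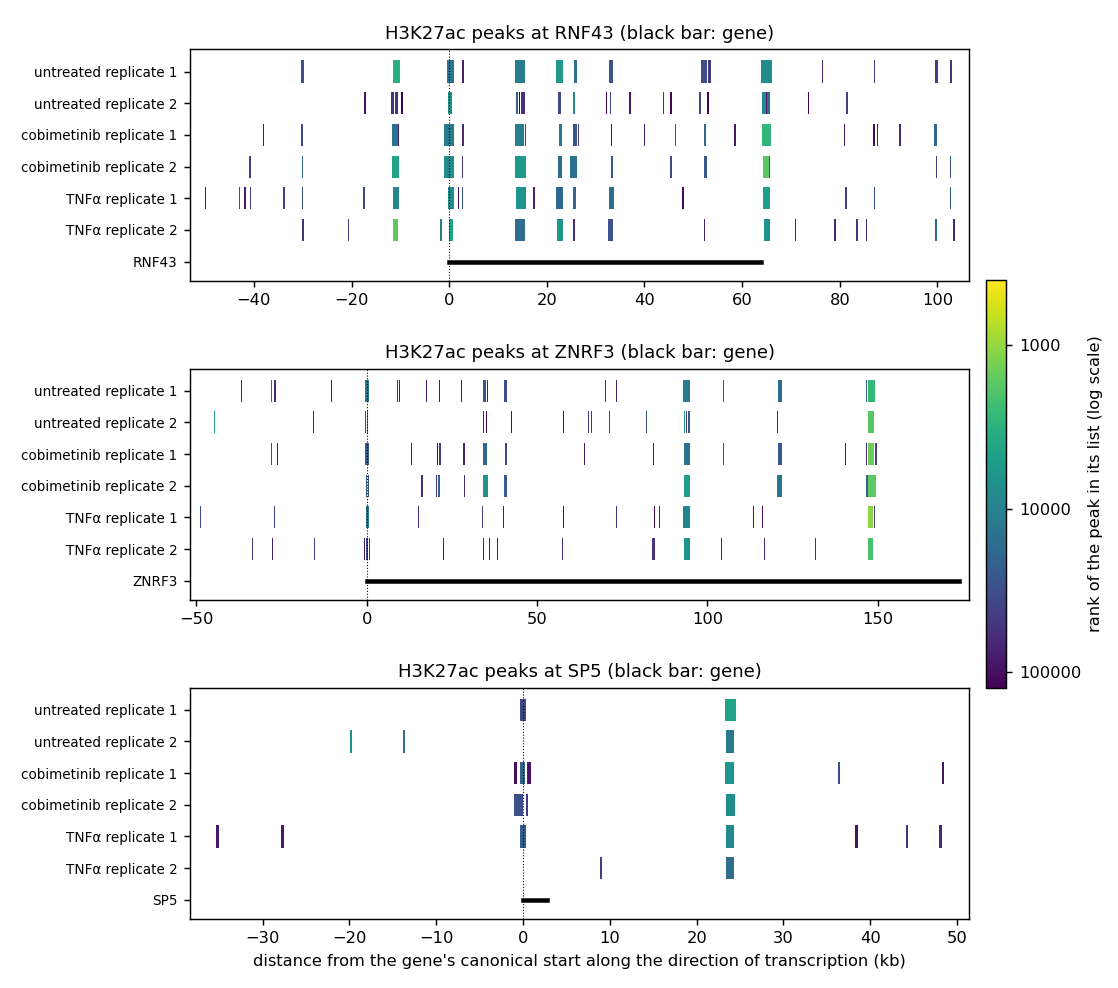
H3K27ac peaks within 50 kb of the starts of *RNF43*, *ZNRF3* and *SP5* (boxes; narrow peaks are drawn at least 0.25 kb wide) by distance from the canonical start (x axes, kb) in the 6 libraries (rows), coloured by rank on a log scale; black bars are the genes. The *SP5* peak near 23.9 kb and the *ZNRF3* peak near 148 kb are present in all 6 libraries.

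The stem cell genes had little mark. Near *LGR5*, the region chr12:71392444-71393230 in an intron of *TSPAN8*, 46.6 kb from the nearest *LGR5* start, ranked 42898 in untreated replicate 1, was absent from untreated replicate 2, and ranked 32909 and 26781 under cobimetinib and 19057 and 16059 under TNFα. The TNFα libraries ranked nearest to the top, by 2.06 against untreated (limma adjusted p = 0.625) and 0.76 against cobimetinib (0.836). It was a region through its TNFα peaks alone, with the bounds of the peak of TNFα replicate 2. It was thus chosen where TNFα was high, and these differences are no independent support for a rise. The 3 regions near *ASCL2* were each held by 1 library, and the only one fitted, chr11:2305104-2305578 in *TSPAN32*, had peaks at 17447 and 55659 under cobimetinib, at 97281 in TNFα replicate 1 and in no other library. The region near *LEF1*, chr4:108058350-108058806, ranked 30516 in untreated replicate 1 and 15718 and 25159 under TNFα, with no peak in the other 3 libraries. At *TCF7* the canonical start, chr5:134114250-134114725, ranked 14067 and no peak, 29452 and 32216, and 35330 and 16379, and the region 932 bp from an internal start, chr5:134124550-134126041, ranked 20458 and 3943, 11715 and 26781, and 15718 and 18781. The *NKD1* start, chr16:50548243-50548946, was held by TNFα replicate 1 alone. Near *NOTUM* the best-ranked region was at the *ASPSCR1* start, chr17:81976999-81978487, with ranks of 576 and 1293, 2502 and 537, and 2149 and 2821 in the 3 conditions.

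Counted by presence, 2 of the 44 regions were held by both cobimetinib libraries and neither untreated one, the *AXIN2* downstream and *ZNRF3* intronic regions, against 3.92% of all regions. The converse held for 1, at the canonical *ZNRF3* start, against 1.6%. For TNFα, 1 region was held by both TNFα and neither untreated library (near *LGR5*, against 3.56%) and 1 by both untreated and neither TNFα library (upstream of *AXIN2*, against 1.0%). Between the treatments, 1 region was held by both TNFα and neither cobimetinib library, near *LGR5* (against 5.41%), and 3 by both cobimetinib and neither TNFα library (against 4.39%), the *AXIN2* downstream, *AXIN2* upstream and *ZNRF3* intronic regions. No test was made of these counts.

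Around these targets, the rest of the pathway was described by the same promoter ranks. Of 17 receptor and transducer genes 9 had a promoter peak in all 6 libraries, as did 8 of 10 genes of the destruction complex, 8 of 10 TCF/LEF factors and β-catenin cofactors, 6 of 25 ligand and secretion genes, 1 of 11 secreted antagonists and 3 of 13 other intestinal Wnt targets. Among all protein-coding genes the share was 51.9%, and no test was made of these counts. No gene of these lists passed the test in any comparison. For cobimetinib against untreated the median difference was 0.83 in the destruction complex, 0.70 in the other intestinal targets, 0.39 in the receptors, 0.13 in the cofactors and 0.0047 in the ligand and secretion genes, beside 0.36 over all genes. Of 16 genes named by the rule in these lists, the largest difference was at *FZD6*, a Frizzled receptor, which ranked 2959 and 11736 in untreated cells, 662 and 598 under cobimetinib and 9192 and 6467 under TNFα. The cobimetinib libraries ranked above the 4 others, by 3.23 ± 0.83 against untreated (unadjusted p = 0.0017, limma adjusted p = 0.556), and TNFα lay below cobimetinib by −3.62 ± 0.83 (0.456). *TNKS2*, a tankyrase that marks axin proteins for destruction, ranked 12378 and 8823, 3931 and 3926, and 8594 and 18339. *WLS*, the carrier that secretes Wnt ligands, ranked 27497 and 34025, 61357 and 55659, and 23089 and 18339, with both cobimetinib libraries lowest. *RGMB*, a coreceptor of bone morphogenetic proteins, ranked 22702 and 62095, 7233 and 14803, and 16694 and 30494. The other 12 differed by at most 1.80 in any comparison, at *PYGO2*, a nuclear cofactor of β-catenin.

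For the treatments themselves, the promoter of *SPRY4*, a feedback inhibitor of MAPK signaling, ranked 3374 and 2321 in untreated cells, 16100 and 17074 under cobimetinib and 2262 and 3641 under TNFα, a difference of −2.57 ± 0.76 for cobimetinib (limma adjusted p = 0.588). *RELB*, an NF-κB subunit gene, ranked 1062 and 4527 in untreated cells, 847 and 1537 under cobimetinib and 310 and 828 under TNFα, a difference of 2.11 ± 0.93 for TNFα (limma adjusted p = 0.969). In both the treated pair lay outside the untreated pair, and neither difference passed the test. Promoter peaks were present in all 6 libraries for 9 of 11 MAPK response genes and 7 of 12 NF-κB response genes, beside 51.9% of all protein-coding genes. In these 2 lists 0 genes passed in any comparison. Of the 11 MAPK response genes, 3 ranked wholly nearer to the top under cobimetinib than in untreated cells and 3 wholly farther from it, with a median difference of −0.15, where 33.9% of all genes did not overlap in either direction. *DUSP4*, which encodes a MAPK phosphatase, was among those nearer to the top, at 13120 and 120424 in untreated cells and 9343 and 6551 under cobimetinib, a difference of 2.35 (limma adjusted p = 0.688). Of the NF-κB response genes, 6 ranked wholly nearer to the top under TNFα than in untreated cells and 0 wholly farther from it. Their median difference was 1.11, where 27.6% of all genes did not overlap. Cobimetinib differed from untreated by a median of 0.95 in this list, with 5 genes wholly nearer to the top and 3 wholly farther. TNFα differed from cobimetinib by a median of 0.12, with 4 nearer and 1 farther, where 44.0% of all genes did not overlap.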

How the data were processed

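Peaks were deposited for 6 H3K27ac libraries (untreated, cobimetinib, TNFα; 2 each). The authors aligned reads to hg38 with BWA (v0.7.15), called peaks in each library with MACS2 (v2.1.1) without IgG and merged its paired-end and single-end calls; the deposited score is their whole-number peak score, at least 20 in each list. Scores rise with depth, so only ranks within a list were used. Untreated replicate 2 carries a resequencing mark in its peak names. Starts came from GENCODE (hg38; 0 peaks passed a chromosome end).

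For each gene the best-scoring peak within 1 kb or 50 kb was taken; no peak received the list length plus 1. Features with a peak in at least 2 libraries were fitted with limma (v3.58.1, R v4.3.3) on all 6 libraries, with Benjamini-Hochberg adjustment over all features. The study's DESeq2 fit needs read counts, not used here. The fit was also run on simulated data with equal spread in all libraries and large planted shifts. Such data can check the code but not the power of the fit on these libraries. Genes, lists and tests were chosen with earlier results of these data known. All 10 genes were named, and from each other list (pathway, treatment response, markers) genes past the threshold and, per comparison, up to 3 with the largest difference among those whose groups did not overlap and that had peaks in all 6 libraries; those printed were chosen after their values were seen.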

Additional observations from a re-analysis of the deposited data

How the results depend on the processing

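Untreated replicate 1 and untreated replicate 2 differed most, and the treated comparisons with untreated cells moved with them. Leaving out 1 library at a time, the number of the 10 genes past adjusted p 0.05 ranged from 0 to 2 for promoter rank in each treatment against untreated, 0 to 1 for the 50 kb rank of TNFα against untreated and 0 to 1 for the promoter width of cobimetinib against untreated, each higher count without untreated replicate 1, where 24.4%, 17.5%, 7.17% and 35.4% of all genes passed in the same fits. The number of regions past it ranged from 0 to 6 (cobimetinib against untreated), 0 to 7 (TNFα against untreated) and 0 to 4 (TNFα against cobimetinib), where 28.1%, 24.9% and 9.71% of all regions passed without untreated replicate 1. Presence counts ranged from 2 to 8 (both cobimetinib, neither untreated), 1 to 8 (both untreated, neither cobimetinib), 2 to 5 (both TNFα, neither untreated), 1 to 8 (both untreated, neither TNFα), 1 to 5 (both TNFα, neither cobimetinib) and 3 to 7 (both cobimetinib, neither TNFα). With 1 library left out, its condition was judged by the remaining library alone, a looser rule for every region. No share of all regions is given for these counts, so a higher count is not a result about these regions. Promoter differences that turned sign and moved by more than 1 SE ranged, for cobimetinib against untreated, from −1.55 to 2.98 for AXIN2, −0.94 to 1.84 for TCF7 and −1.43 to 0.93 for NKD1, for TNFα against untreated from −1.16 to 3.37 for AXIN2, −0.30 to 2.48 for TCF7, −0.064 to 2.29 for NKD1 and −0.42 to 1.59 for SP5, and for TNFα against cobimetinib from −1.87 to 0.14 for SP5. Smaller turns of sign gave −0.29 to 0.67 for RNF43 and −0.67 to 0.93 for ZNRF3 (cobimetinib against untreated) and −0.72 to 1.5 for AXIN2 (TNFα against cobimetinib). The cause was not tested.

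Leaving libraries without a peak out of the fit gave −0.064 for NKD1 (TNFα against untreated) and 0.14 for SP5 (TNFα against cobimetinib), and a 2 kb window gave −1.19 and −1.11 for TCF7 in the comparisons with untreated cells. The single region past the threshold in TNFα against cobimetinib became 0 with ranks divided by list length, with missing peaks left out (where both TNFα libraries have no value) or with the 40000 highest peaks, and 2 with the 4 treated libraries alone, a fit added after the data were seen. Over all regions these fits called 0.124%, 1.41%, 0.0785% and 10.0%, in the same order. For cobimetinib against untreated, 1 region in place of 0 passed without the filter, with the replicate block and with regions from 40000 peaks. There 1.09%, 1.31% and 0.448% of all regions passed. With the 20000 highest peaks, 3 genes in place of 5 to 8 had a promoter peak in untreated replicate 2, both cobimetinib libraries and TNFα replicate 2. The share of all genes in these libraries was then 32.5%, 46.8%, 48.1% and 44.6%, in place of 58.8 to 65.4%. Regions from the 10000 and 40000 highest peaks changed the presence counts, in the order above, to 1 and 1, 0 and 1, 0 and 1, 0 and 2, 0 and 2, and 1 and 6. The shares of all regions at these settings are not given. Deviations of libraries sharing a replicate number correlated at −0.0168 (untreated and cobimetinib), 0.0988 (untreated and TNFα) and 0.03 (cobimetinib and TNFα). With 2 libraries per condition, these values cannot decide whether equal numbers mark a shared batch. The replicate block changed no other count for the genes examined or their regions. Over all regions it called 413 in place of 64 for cobimetinib against untreated, and 182 in place of 31 for TNFα against untreated. For TNFα against cobimetinib it called 716 in place of 368. Depth is unknown from peak lists, and a peak missing from a list is not a measured 0.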
